A study of Mus musculus with 24 samples.

Results

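Selp, Tmem178, Lypd6b, Rasal1, Myh10, Elfn2, Slc16a9, Allc, Fezf2 and Prrx2 are 10 mouse genes that had been noted for a difference between Pparg fl/- LysCre and Pparg+/- LysCre macrophages grown with IL-4 and rosiglitazone (RSG). They were measured by 16 of the 45101 probe sets of the array, and all 16 were among the 43349 probe sets tested. Expression was measured in macrophages grown from C57Bl/6 bone marrow, with 1 array for each culture and 24 arrays in all. Both genotypes carry LysCre, a Cre gene driven by the lysozyme locus that myeloid cells use, and 1 null allele of Pparg. In Pparg fl/- LysCre cells the other allele is floxed and open to deletion, and in Pparg+/- LysCre cells it is intact. Marrow was cultured for 10 days in 20 ng/ml M-CSF under 4 conditions, namely 20 ng/ml IL-4 with 1 µM RSG, IL-4 with vehicle, RSG without IL-4, and vehicle without IL-4. Each of 6 mice gave 1 culture to every condition. Mice 4 to 6 were Pparg fl/- LysCre and mice 1 to 3 were Pparg+/- LysCre, and they are called fl/- and +/- from here on. The age of the mice is not given in the sources used here.

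PPARγ is a nuclear receptor that binds lipid ligands, pairs with the retinoid X receptor and switches on genes of fat uptake, storage and oxidation. RSG is a synthetic agonist of it. IL-4 drives the alternative activation of macrophages through the transcription factor STAT6, and Pparg itself is a gene that IL-4 raises in these cells. The 10 genes are of several kinds: cell surface and membrane proteins (Selp, Lypd6b, Tmem178, Elfn2, Slc16a9), proteins of signaling and the cytoskeleton (Rasal1, Myh10), an enzyme (Allc) and transcription factors (Fezf2, Prrx2).

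The values are expression ratios. A ratio of 1 is the median of that probe set over the arrays for 82.2% of probe sets, so ratios compare arrays and say nothing of how bright a probe set or how abundant a transcript is. Levels of different genes are therefore not compared. A log2 difference is given with its standard error (SE) from limma, and a mean ratio with the standard deviation (SD) over 3 mice. A probe set was called at a Benjamini-Hochberg adjusted p under 0.05 over all probe sets tested together with a change of at least 1.5-fold. The 10 genes were chosen by the difference between genotypes on the arrays with IL-4 and RSG, so every difference that uses these arrays is given as a description without a p-value. The 9 comparisons that do not use them were tested, on other cultures of the same mice. The number of arrays, 3 a group, limits the precision.

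The targeted gene was measured by 1 probe set. Pparg had ratios of 1.93, 2.41 and 2.81 in fl/- cells and 1.09, 0.91 and 0.895 in +/- cells with IL-4 and RSG. With IL-4 and vehicle the ratios were 1.86, 2.91 and 3.16 in fl/- cells and 2.02, 1.71 and 1.46 in +/- cells. The Pparg signal was thus not lower in fl/- cells. Whether its probes fall inside the floxed stretch is not known here, so the value is no check on the deletion. IL-4 raised it in both genotypes, by 1.76 ± 0.26 log2 units in fl/- cells (limma, adjusted p = 5.5e-05) and by 1.65 ± 0.26 in +/- cells (limma, adjusted p = 1.3e-04). The macrophage markers Csf1r and Adgre1 stayed between 0.8 and 1.35 on all arrays. Of the whole list of 9 macrophage markers, 1 rose with IL-4 (Itgam) and 4 fell (Cd14, Fcgr1, Mertk and Cd163) in both genotypes. For this and every later list, IL-4 with vehicle had 14.8% of all probe sets called in fl/- and 13.4% in +/- cells. Cd14, the co-receptor for bacterial lipopolysaccharide, was also higher in fl/- than in +/- cells with IL-4 and RSG (1.13 ± 0.19 log2 units), and lower with RSG than with vehicle in IL-4-treated +/- cells (-1.22 ± 0.19). The mean log2 ratio of the list was -0.24 to 0.39 in fl/- and -0.58 to 0.01 in +/- cells with IL-4 and RSG, and -0.30 to 0.02 in fl/- and -0.40 to 0.28 in +/- cells with IL-4 and vehicle. Without IL-4 it was 0.22 to 0.59 in fl/- and 0.12 to 0.75 in +/- cells with RSG, and 0.12 to 0.72 in fl/- and 0.25 to 0.69 in +/- cells with vehicle. The part of these markers in the values of the 10 genes was not tested. Array medians were 0.906 to 1.08.

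**Figure D1:**
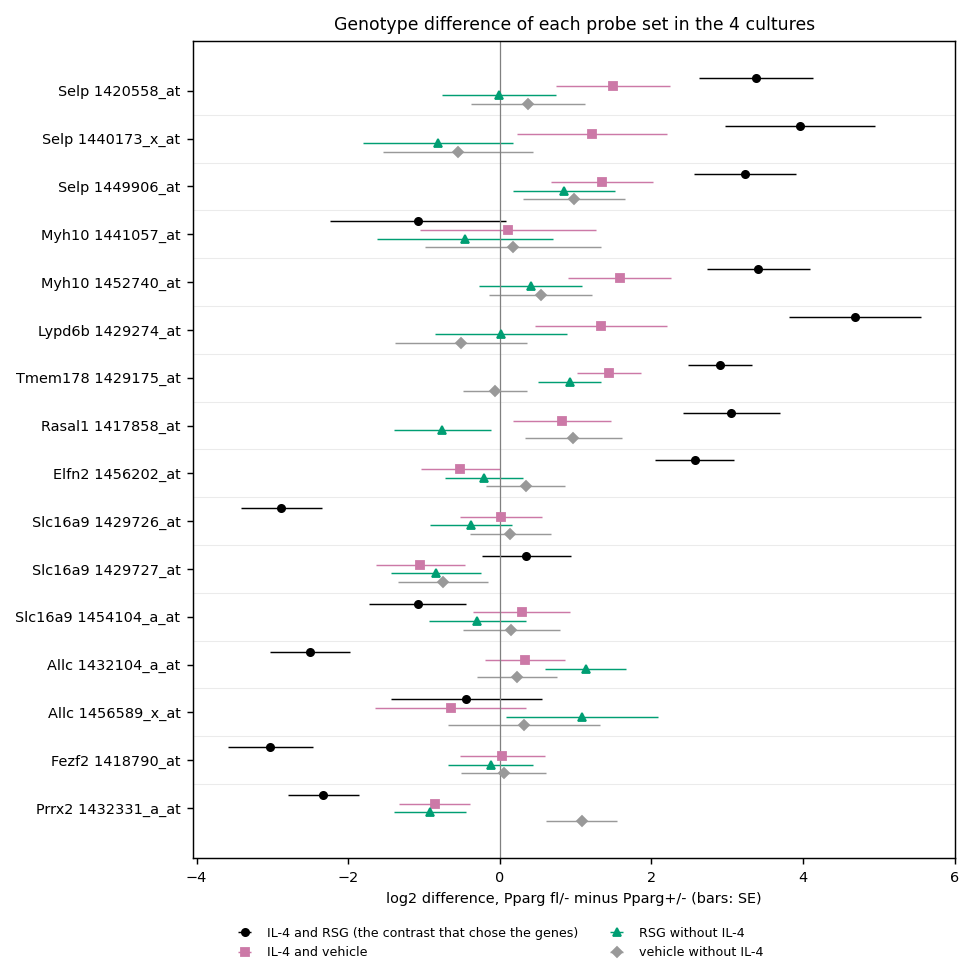
Log2 difference of each of the 16 probe sets between fl/- and +/- cells (fl/- minus +/-, with SE bars) in the 4 culture conditions. Black circles are the IL-4 and RSG cultures, which chose the genes. There 1 probe set of each gene lies at least 2.33 log2 units from 0, while with vehicle and no IL-4 the differences lie between -0.75 and 1.08. Bars of Selp 1420558_at are from the fit without a mean-variance trend.

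In cells with IL-4 and RSG, Selp, Tmem178, Lypd6b, Rasal1, Myh10 and Elfn2 were higher in fl/- than in +/- cells, and Fezf2, Slc16a9, Allc and Prrx2 were lower. Lypd6b had the widest difference of all 43349 probe sets, 4.68 ± 0.87 log2 units. One probe set of each gene, 10 of the 16, was called there (6 higher, against 0.355% of all probe sets, and 4 lower, against 0.145%; 0.501% in either direction), and since this contrast chose the genes nothing is read from that count. The other 2 Selp probe sets also lay higher in fl/- cells without overlap of the arrays, as 23.1% of all probe sets did not overlap there. Slc16a9 1454104_a_at lay lower in fl/- cells too, by less than the called probe set. The remaining probe sets of Myh10, Allc and Slc16a9 did not share the difference, as the values of each gene show. The question for each gene is whether RSG moved it in +/- cells, in fl/- cells or in both, and whether IL-4 was needed.

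Selp encodes P-selectin, an adhesion molecule that platelets and endothelial cells store in granules and carry to their surface. The gene lies on chromosome 1 of GRCm38.p6, at positions 164115264 to 164150026, and 3 probe sets measured it. Probe set 1449906_at had ratios of 8.24, 20.2 and 20.1 in fl/- cells with IL-4 and RSG, against 1.51, 0.946 and 2.84 in +/- cells. With IL-4 and vehicle it had 31.4, 32.8 and 30.8 in fl/- cells, against 7.61, 13.7 and 18.3 in +/- cells. Without IL-4 it was between 0.113 and 1.05 on all 12 arrays. Selp was thus high only in the cultures with IL-4, and among these it was lowest in +/- cells that also had RSG. The difference of RSG from vehicle with IL-4 was -1.08 ± 0.67 log2 units in fl/- cells and -2.96 ± 0.67 in +/- cells, and Selp was lower with RSG in 3 of 3 mice of both genotypes. Probe set 1440173_x_at gave -0.71 ± 0.99 in fl/- and -3.46 ± 0.99 in +/- cells, and 1420558_at gave -0.77 ± 0.75 in fl/- and -2.66 ± 0.75 in +/- cells. The 3 probe sets followed each other across the 24 arrays with Pearson's r of 0.92 to 0.94. In +/- cells, arrays with IL-4 and RSG did not overlap those with IL-4 and vehicle at any of the 3 probe sets, as for 14.4% of all probe sets. In fl/- cells they did not overlap at 2 of the 3, as for 7.38% of all probe sets.

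The IL-4 response of Selp could be tested and was the largest of the 10 genes. At 1440173_x_at IL-4 raised it by 8.80 ± 0.99 log2 units, or 445-fold, in fl/- cells (limma, adjusted p = 3.3e-06) and by 7.03 ± 0.99, or 131-fold, in +/- cells (limma, adjusted p = 4.7e-05). This probe set varied most within groups of the 3 (SD 1.24 on the log2 scale, percentile 85.4 of all). Without IL-4 its ratio of RSG to vehicle was 0.159, 0.106 and 18 in +/- mice 1, 2 and 3. At 1449906_at the rise was 6.80 ± 0.67 (111-fold, limma adjusted p = 8.5e-07) in fl/- cells and 6.43 ± 0.67 (86.1-fold, limma adjusted p = 2.0e-06) in +/- cells. Both were called without each mouse in turn. The rise at 1440173_x_at was 7.97 without mouse 6 and 9.38 without mouse 5 in fl/- cells, and 5.62 without mouse 3 and 7.83 without mouse 1 in +/- cells. The third probe set, 1420558_at, had so high a mean ratio that the mean-variance trend of limma gave it a prior SD of 115 on the log2 scale, where the median over probe sets was 0.27. Its SE was therefore taken from a fit without the trend, added after seeing the data, in which it rose by 6.01 ± 0.75 in fl/- cells (limma, adjusted p = 1.5e-05) and by 4.89 ± 0.75 in +/- cells (limma, adjusted p = 1.5e-04). The IL-4 response did not differ between genotypes past the threshold, with 0.37 ± 0.95 at 1449906_at and 1.77 ± 1.40 at 1440173_x_at (fl/- minus +/-, limma, adjusted p = 1 for both).

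In the separate cultures with IL-4 and vehicle, fl/- cells were above +/- cells in Selp at all 3 probe sets with no overlap of arrays, as for 10.7% of all probe sets. The difference was 1.35 ± 0.67 log2 units at 1449906_at (limma, adjusted p = 0.57) and 1.21 ± 0.99 at 1440173_x_at (limma, adjusted p = 0.76), neither past the threshold. It depended on the processing. Between the alternatives named below, with all mice kept, it was 0.38 to 1.35 at 1449906_at, 0 to 1.21 at 1440173_x_at and 0.77 to 1.49 at 1420558_at. Without IL-4, RSG differed from vehicle by 0.06 ± 0.67 in fl/- cells and 0.19 ± 0.67 in +/- cells at 1449906_at, and the arrays overlapped.

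Megakaryocytes and endothelial cells are the usual sources of Selp, and their markers were read beside it. Of 9 megakaryocyte and platelet markers measured, 3 rose and 1 fell with IL-4 in fl/- cells, and 5 rose and 1 fell in +/- cells. Among them Itga2b rose by 0.70 in fl/- and by 0.86 in +/- cells, and Pf4 fell by 1.09 in fl/- and by 0.67 in +/- cells. The mean log2 ratio of the 9 markers ranged over mice from -0.14 to 0.28 in fl/- and from 0 to 0.41 in +/- cells with IL-4, and from -0.66 to -0.45 in fl/- and from -0.97 to -0.10 in +/- cells without IL-4 (vehicle). With IL-4 and RSG, where Selp differed between genotypes, it was 0.18 to 0.48 in fl/- and 0.25 to 0.47 in +/- cells. Of 9 endothelial markers 2 rose with IL-4 in fl/- cells (Pecam1 and Egfl7) and 0 were called in +/- cells by limma (4 at an unadjusted p under 0.05). Their mean log2 ratio was 0.21 to 0.46 in fl/- and 0.40 to 0.63 in +/- cells with IL-4 and RSG, and -0.30 to 0.37 in fl/- and 0.11 to 0.20 in +/- cells with IL-4 and vehicle. Without IL-4 (vehicle) it was -0.60 to 0.10 in fl/- and -1.02 to -0.29 in +/- cells. Whether a marker was absent cannot be read from ratios, and the part of such cells in the Selp result was not tested. In these bulk cultures, fewer cells of a type and less RNA per cell cannot be told apart.

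The 250 bases before the annotated start of Selp and of Tmem178 are shown because both genes were lower with RSG in IL-4-treated +/- cells, and only 1 of the 2 holds a half-site of the kind nuclear receptors bind. The sequences are from RefSeq (GRCm38.p6), on the plus strand, at chr1:164115014-164115263 for Selp and chr17:80944382-80944631 for Tmem178, and the capitals mark the half-site AGGTCA read on the other strand.
Selp: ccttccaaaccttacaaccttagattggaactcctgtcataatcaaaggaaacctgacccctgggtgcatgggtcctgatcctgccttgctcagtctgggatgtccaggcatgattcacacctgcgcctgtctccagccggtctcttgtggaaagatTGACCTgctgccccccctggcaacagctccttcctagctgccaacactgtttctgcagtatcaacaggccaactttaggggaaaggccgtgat
Tmem178: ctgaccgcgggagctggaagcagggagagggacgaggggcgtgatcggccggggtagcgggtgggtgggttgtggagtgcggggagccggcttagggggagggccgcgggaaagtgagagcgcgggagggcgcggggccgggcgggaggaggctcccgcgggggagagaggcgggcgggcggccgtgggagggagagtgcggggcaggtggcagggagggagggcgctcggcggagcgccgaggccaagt
Promoter windows of 300 bases, 250 before and 50 after the start, were given for 8 of the 10 genes, without Lypd6b and Rasal1. They were searched on both strands for the half-site AGGTCA, for the direct repeat AGGTCANAGGTCA that PPARγ binds with its partner, which contains the half-site, and for the STAT6 pattern TTCNNNNGAA. The half-site stood in 1 of the 8 windows, that of Selp at position -93 from the start, and in 16.3% of 32851 mouse windows. The direct repeat and the STAT6 pattern stood in 0 of the 8 windows, and in 0.0396% and 6.95% of all windows. A match of letters is a description and not a binding site.

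**Figure D2:**
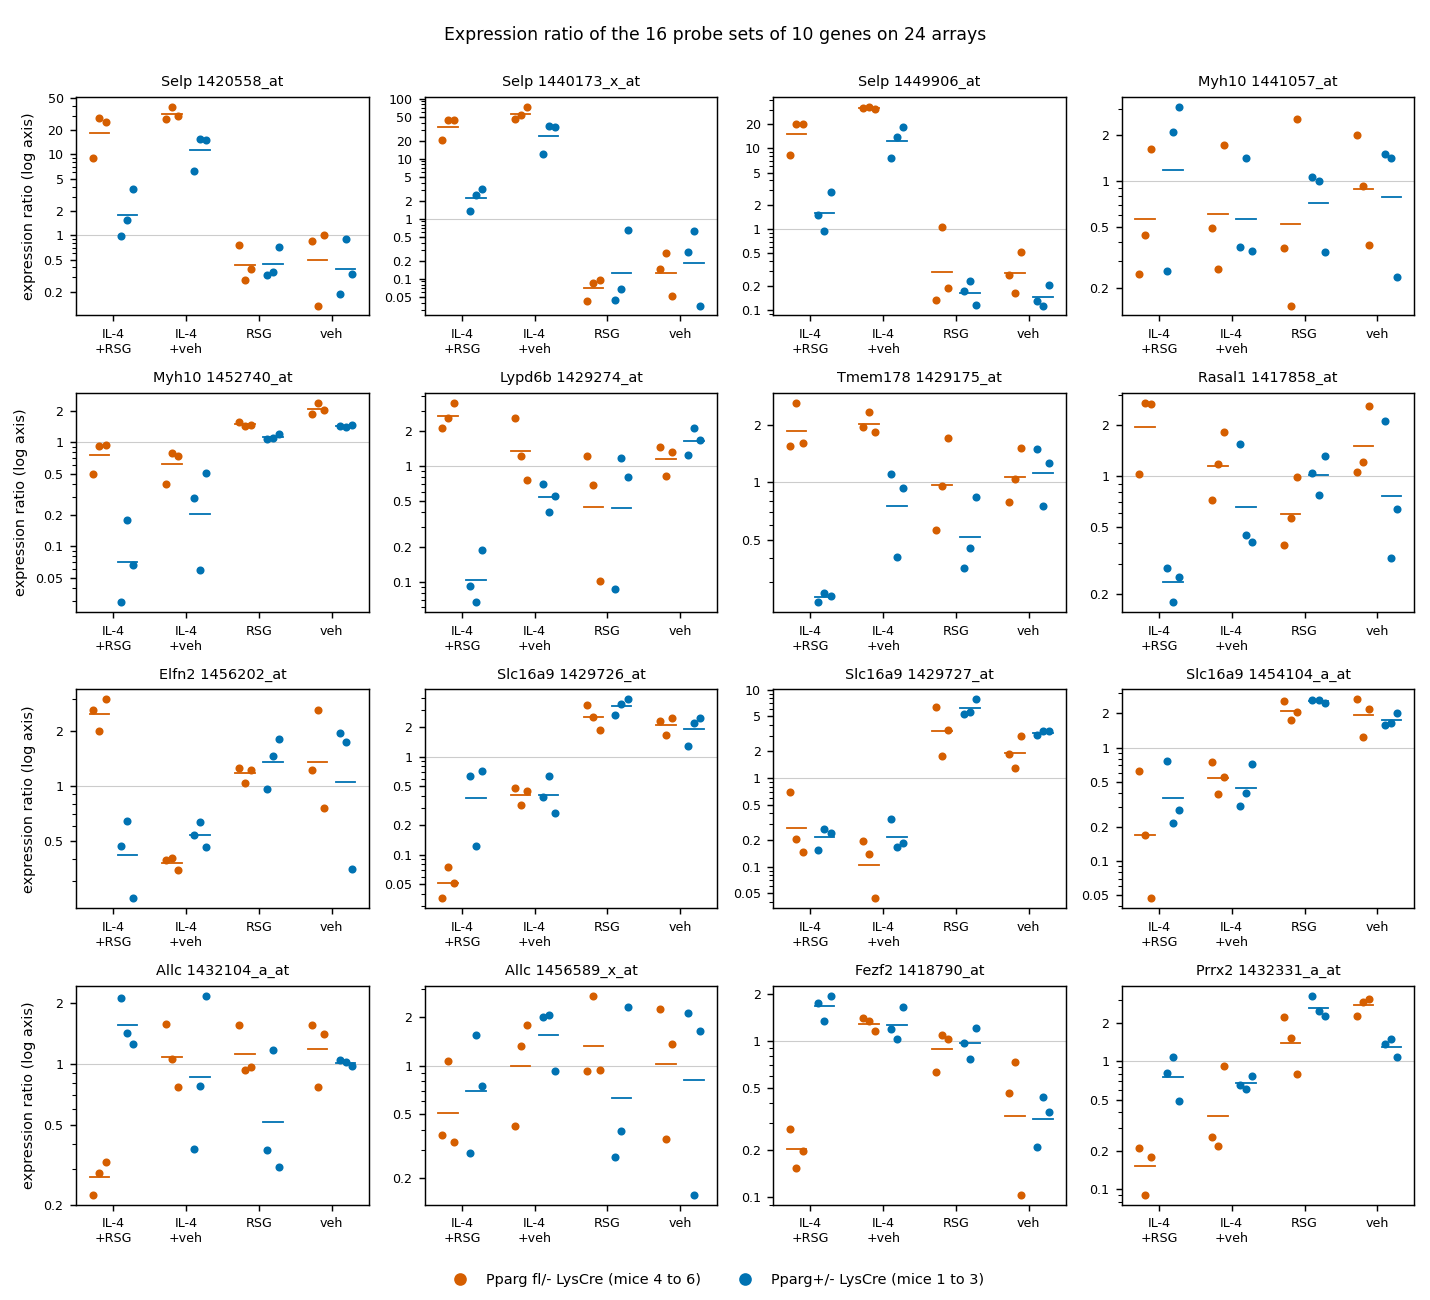
Expression ratio (log axis) of each of the 16 probe sets on the 24 arrays, in the 4 culture conditions, with fl/- mice in orange and +/- mice in blue. Each point is 1 array and each line the mean of the log2 ratios of a group. Tmem178 lies between 0.236 and 0.262 on the 3 arrays of +/- cells with IL-4 and RSG, and between 1.55 and 2.61 on those of fl/- cells.

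Tmem178 encodes a membrane protein that in mouse restrains store-operated calcium entry and osteoclast formation (chromosome 17, 80944632 to 81001816, probe set 1429175_at). It had ratios of 1.55, 2.61 and 1.61 in fl/- cells with IL-4 and RSG, against 0.236, 0.262 and 0.255 in +/- cells. With IL-4 and vehicle it had 1.96, 2.33 and 1.83 in fl/- cells, against 1.11, 0.405 and 0.929 in +/- cells. RSG differed from vehicle with IL-4 by -0.12 ± 0.42 log2 units in fl/- cells and by -1.57 ± 0.42 in +/- cells. It was lower with RSG in 3 of 3 +/- mice, with no overlap of arrays, as for 14.4% of all probe sets. In fl/- cells it was lower in 2 of 3 mice, by at most 0.34. The fl/- cells were also above the +/- cells with IL-4 and vehicle, without overlap of arrays, as for 10.7% of all probe sets. The difference of 1.44 ± 0.42 was short of the threshold (limma, adjusted p = 0.30). This difference was 1.00 to 1.73 when each mouse was left out in turn. Without IL-4 Tmem178 had 0.563, 0.96 and 1.70 in fl/- cells with RSG and 0.786, 1.04 and 1.51 with vehicle. In +/- cells without IL-4 it had 0.357, 0.454 and 0.843 with RSG and 1.49, 0.756 and 1.26 with vehicle. There RSG was lower than vehicle in 3 of 3 +/- mice, by -1.12 ± 0.42 (limma, adjusted p = 0.81), and in 2 of 3 fl/- mice, by -0.14 ± 0.42 (limma, adjusted p = 1). Of 8 osteoclast markers 5 rose with IL-4 in fl/- cells, and 5 rose and 1 fell in +/- cells. Their mean log2 ratio with IL-4 and RSG was 0.51 to 1.05 in fl/- and 0.45 to 0.60 in +/- cells, and 1 of the 8, Dcstamp, was called higher in fl/- cells there. Their part in the values of Tmem178 was not tested.

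Lypd6b encodes a member of the Ly6/uPAR family of membrane-anchored proteins (chromosome 2, 49787340 to 49948849, probe set 1429274_at). It had ratios of 2.11, 2.60 and 3.50 in fl/- cells with IL-4 and RSG, against 0.0915, 0.067 and 0.187 in +/- cells. In IL-4 cultures given vehicle it had 2.60, 1.23 and 0.761 in fl/- cells, against 0.693, 0.40 and 0.553 in +/- cells. The fl/- arrays thus lay above the +/- arrays with vehicle also, as 10.7% of all probe sets did not overlap there. That difference was not called. RSG differed from vehicle with IL-4 by 0.99 ± 0.87 log2 units in fl/- cells, higher in 2 of 3 mice. In +/- cells it differed by -2.36 ± 0.87, lower in 3 of 3 mice with no overlap, as for 14.4% of all probe sets. Without IL-4 Lypd6b was on the lower side with RSG in 3 of 3 mice of both genotypes. There the ratios were 1.21, 0.689 and 0.101 with RSG and 1.45, 0.817 and 1.31 with vehicle in fl/- cells. In +/- cells without IL-4 they were 0.0859, 1.18 and 0.805 with RSG and 1.25, 2.13 and 1.69 with vehicle. These differences, -1.40 ± 0.87 in fl/- cells (limma, adjusted p = 1) and -1.93 ± 0.87 in +/- cells (limma, adjusted p = 0.91), did not pass the threshold. The lowest RSG arrays were those of mouse 6 in fl/- and mouse 1 in +/- cells, and without mouse 1 the difference in +/- cells was -0.96. In fl/- cells it was -3.69 in mouse 6, and -0.27 and -0.25 in mice 4 and 5.

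Rasal1 encodes a GTPase-activating protein that turns Ras off (chromosome 5, 120648040 to 120679597, probe set 1417858_at). It had ratios of 1.02, 2.69 and 2.66 in fl/- cells with IL-4 and RSG, against 0.286, 0.18 and 0.251 in +/- cells. Its ratios with IL-4 and vehicle were 0.717, 1.18 and 1.81 in fl/- cells, against 1.53, 0.445 and 0.409 in +/- cells. With RSG the mice of the 2 genotypes lay on opposite sides of vehicle, higher in 3 of 3 fl/- mice (0.51 to 1.19 log2 units) and lower in 3 of 3 +/- mice (-2.41 to -0.70). The mean difference was 0.75 ± 0.64 in fl/- and -1.47 ± 0.64 in +/- cells. Without IL-4 the order was the other way, with RSG lower than vehicle in 3 of 3 fl/- mice (-1.31 ± 0.64, limma adjusted p = 1) and higher in 2 of 3 +/- mice (0.42 ± 0.64, limma adjusted p = 1).

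Myh10 encodes the heavy chain of nonmuscle myosin IIB, a motor of the actin cytoskeleton (chromosome 11, 68691915 to 68816626). At probe set 1452740_at it had ratios of 0.492, 0.916 and 0.931 in fl/- cells with IL-4 and RSG, against 0.0292, 0.18 and 0.066 in +/- cells. In IL-4 cultures given vehicle it had 0.396, 0.788 and 0.744 in fl/- cells, against 0.289, 0.0597 and 0.505 in +/- cells. This genotype difference was 1.52 to 1.58 log2 units between the alternatives named below, with all mice kept. It was 0.69 to 2.23 when each mouse was left out in turn. The arrays overlapped and the difference was not called. The difference of RSG from vehicle with IL-4 was 0.28 ± 0.68 log2 units in fl/- cells and -1.55 ± 0.68 in +/- cells. In +/- cells RSG was lower in 2 of 3 mice and higher in mouse 2, whose vehicle culture was the lowest of its group. Without mouse 2 the difference in +/- cells was -3.12, and without mouse 1 it was -0.67. With IL-4 Myh10 fell in +/- cells (-2.80 ± 0.68, 6.96-fold lower, limma adjusted p = 0.0062), and differed by -1.76 ± 0.68 in fl/- cells (limma, adjusted p = 0.079). The fall in +/- cells was -1.92 without mouse 2 and -3.44 without mouse 3 and stayed called, and the fl/- value was called once mouse 2 was left out. These 2 responses did not differ from each other past the threshold (1.04 ± 0.96, limma, adjusted p = 1). Without IL-4 the ratios were 1.58, 1.42 and 1.46 in fl/- and 1.07, 1.09 and 1.20 in +/- cells with RSG, and 1.86, 2.38 and 2.05 in fl/- and 1.43, 1.41 and 1.46 in +/- cells with vehicle. The fl/- arrays thus lay above the +/- arrays under both treatments, and the RSG arrays below the vehicle arrays in both genotypes, by differences that did not pass the threshold (0.54 ± 0.68 between genotypes with vehicle, limma adjusted p = 0.86). Of all probe sets, 16.4% with RSG and 18.6% with vehicle did not overlap between genotypes there, and 8.66% in fl/- and 12.2% in +/- cells did not overlap between RSG and vehicle. The second probe set, 1441057_at, scattered within groups and did not follow the first over the arrays (r = -0.08). It gave -1.08 ± 1.16 between genotypes with IL-4 and RSG.

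**Figure D3:**
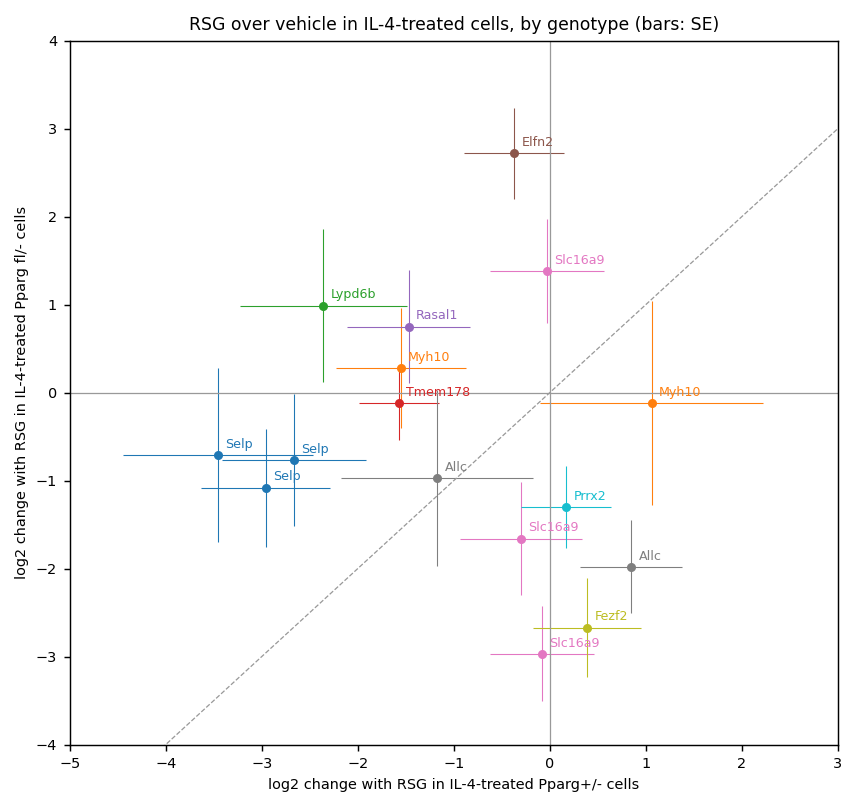
Log2 change with RSG over vehicle in IL-4-treated cells for the 16 probe sets, with +/- cells on the horizontal and fl/- cells on the vertical axis (SE bars, dashed line where both are equal). Selp, Lypd6b, Tmem178, Rasal1 and Myh10 1452740_at lie left of 0, between -3.46 and -1.47 in +/- cells. Elfn2 lies at 2.72 in fl/- cells, and Fezf2, Prrx2, Allc 1432104_a_at and Slc16a9 1429726_at lie at -2.97 to -1.30 in fl/- cells with -0.08 to 0.85 in +/- cells. Bars of Selp 1420558_at are from the fit without a mean-variance trend.

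The other 5 genes had the reverse layout at 1 or more probe sets each, with the larger difference between RSG and vehicle in IL-4-treated fl/- cells. Elfn2, a leucine-rich repeat protein known from synapses (chromosome 15, 78667333 to 78718771, probe set 1456202_at), was the one that was higher. It had ratios of 2.59, 2.00 and 2.98 in fl/- cells with IL-4 and RSG, against 0.469, 0.642 and 0.242 in +/- cells. Its ratios with IL-4 and vehicle were 0.391, 0.403 and 0.344 in fl/- cells, against 0.541, 0.632 and 0.464 in +/- cells. RSG differed from vehicle by 2.72 ± 0.52 log2 units in fl/- cells and by -0.37 ± 0.52 in +/- cells. In fl/- cells Elfn2 was higher with RSG in 3 of 3 mice with no overlap, as for 7.38% of all probe sets. With IL-4 and vehicle the order of the genotypes was opposite to that with RSG, fl/- below +/- by -0.52 ± 0.52 (limma, adjusted p = 0.82). IL-4 lowered Elfn2 in fl/- cells (-1.83 ± 0.52, 3.55-fold, limma adjusted p = 0.017), and the call was lost without mouse 4 (-1.92) or mouse 5 (-1.40). In +/- cells the IL-4 difference was -0.97 ± 0.52 (limma, adjusted p = 0.24). RSG without IL-4 gave -0.20 ± 0.52 in fl/- and 0.36 ± 0.52 in +/- cells (limma, adjusted p = 1 for both).

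Fezf2 encodes a zinc finger transcription factor known from neurons of the cortex and from thymic epithelium (chromosome 14, 12338992 to 12346803, probe set 1418790_at). It had ratios of 0.274, 0.154 and 0.197 in fl/- cells with IL-4 and RSG, against 1.75, 1.34 and 1.94 in +/- cells. With IL-4 and vehicle the arrays of the genotypes overlapped, with 1.39, 1.33 and 1.15 in fl/- cells and 1.19, 1.03 and 1.65 in +/- cells (0.03 ± 0.56, limma adjusted p = 0.99). RSG differed from vehicle with IL-4 by -2.67 ± 0.56 log2 units in fl/- cells, lower in 3 of 3 mice, and by 0.39 ± 0.56 in +/- cells, higher in 3 of 3 mice. Without IL-4 RSG was on the higher side in 3 of 3 mice of both genotypes. There the ratios were 0.629, 1.09 and 1.03 with RSG and 0.467, 0.735 and 0.104 with vehicle in fl/- cells. In +/- cells they were 0.973, 0.768 and 1.21 with RSG and 0.21, 0.436 and 0.351 with vehicle. The differences of 1.44 ± 0.56 in fl/- (limma, adjusted p = 1) and 1.60 ± 0.56 in +/- cells (limma, adjusted p = 0.77) were short of the threshold. Mouse 6 had the widest of the fl/- differences, 3.31 against 0.43 and 0.57 in mice 4 and 5, and without it the fl/- difference was 0.50. IL-4 raised Fezf2 by 1.97 ± 0.56, or 3.90-fold, in fl/- cells (limma, adjusted p = 0.017) and by 1.99 ± 0.56, or 3.97-fold, in +/- cells (limma, adjusted p = 0.016). The call in fl/- cells was lost without mouse 3 (1.97) or mouse 6 (1.22), and that in +/- cells without mouse 1 (1.74), mouse 2 (2.37) or mouse 3 (1.87).

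Prrx2 encodes a paired-related homeobox transcription factor of mesenchymal cells (chromosome 2, 30845064 to 30881251, probe set 1432331_a_at). It had ratios of 0.21, 0.0906 and 0.179 in fl/- cells with IL-4 and RSG, against 0.806, 1.09 and 0.493 in +/- cells. In IL-4 cultures given vehicle it had 0.256, 0.217 and 0.921 in fl/- cells, against 0.649, 0.611 and 0.772 in +/- cells. In the presence of IL-4, RSG differed from vehicle by -1.30 ± 0.47 log2 units in fl/- cells and by 0.17 ± 0.47 in +/- cells. Prrx2 was lower with RSG in 3 of 3 fl/- mice with no overlap, as for 7.38% of all probe sets. It was higher in 2 of 3 +/- mice. Without mouse 6, whose vehicle culture was the highest of its group, the difference in fl/- cells was -0.77. Without IL-4 Prrx2 had 2.22, 1.52 and 0.803 in fl/- cells with RSG and 2.28, 2.93 and 3.08 with vehicle. In +/- cells without IL-4 it had 3.26, 2.46 and 2.28 with RSG and 1.36, 1.5 and 1.08 with vehicle. RSG was thus lower than vehicle in 3 of 3 fl/- mice (-0.98 ± 0.47, limma adjusted p = 1) and higher in 3 of 3 +/- mice (1.02 ± 0.47, limma adjusted p = 0.92) without IL-4 also. The arrays of the 2 treatments did not overlap in either genotype, as for 8.66% of all probe sets in fl/- cells and 12.2% in +/- cells. The difference between these responses, -1.99 ± 0.66, did not pass the threshold (limma, adjusted p = 0.87).

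IL-4 lowered Prrx2 in fl/- cells (-2.89 ± 0.47, 7.39-fold, limma adjusted p = 1.6e-04), also with each mouse left out in turn (-3.46 without mouse 6 to -2.45 without mouse 5). In +/- cells the IL-4 difference was -0.95 ± 0.47 (limma, adjusted p = 0.19), and the difference between these responses was -1.94 ± 0.66 (limma, adjusted p = 0.88). With vehicle and no IL-4 the fl/- arrays lay above the +/- arrays, by 1.08 ± 0.47 (limma, adjusted p = 0.50), as 18.6% of all probe sets did not overlap there. With RSG and no IL-4 they lay below, by -0.92 ± 0.47 (limma, adjusted p = 0.56), as 16.4% did not overlap. Markers of stromal and mesenchymal cells moved alongside Prrx2 and Myh10 with IL-4. Of 11 such markers, 4 fell in both genotypes, namely Col1a1, Col1a2, Col3a1 and Postn, and 0 rose. The mean log2 ratio of the list was -1.17 to -0.91 in fl/- and -1.34 to -0.93 in +/- cells with IL-4 and RSG, and -1.30 to -0.66 in fl/- and -1.25 to -0.52 in +/- cells with IL-4 and vehicle. With RSG and no IL-4 it was 0.01 to 1.27 in fl/- and 0.07 to 0.63 in +/- cells. With vehicle and no IL-4 it was 0.35 to 1.63 in fl/- and 0.14 to 0.41 in +/- cells. Col1a1 had ratios of 2.78, 7.63 and 4.19 in fl/- and 3.03, 2.45 and 1.46 in +/- cells with vehicle and no IL-4. The part of these cells in the values of Prrx2 and Myh10 was not tested. Neutrophil markers moved with IL-4 too, with 7 of 8 lower in fl/- and 6 of 8 lower in +/- cells.

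Slc16a9 belongs to the monocarboxylate transporter family (chromosome 10, 70245276 to 70285951) and was measured by 3 probe sets. At 1429726_at it had ratios of 0.0361, 0.0753 and 0.0522 in fl/- cells with IL-4 and RSG, against 0.632, 0.124 and 0.717 in +/- cells. Its ratios with IL-4 and vehicle were 0.48, 0.319 and 0.449 in fl/- cells, against 0.39, 0.644 and 0.267 in +/- cells. In the presence of IL-4, RSG differed from vehicle by -2.97 ± 0.54 log2 units in fl/- cells, lower in 3 of 3 mice, and by -0.08 ± 0.54 in +/- cells. The value in +/- cells rested on single mice, and was 1.06 without mouse 2 and -0.84 without mouse 3. Of the other 2 probe sets, 1454104_a_at had this layout with smaller differences, and 1429727_at did not share it. At 1429727_at RSG gave 1.38 ± 0.59 in fl/- and -0.03 ± 0.59 in +/- cells, the opposite direction, and the genotypes differed by 0.35 ± 0.59 with IL-4 and RSG. At 1454104_a_at RSG gave -1.66 ± 0.64 in fl/- and -0.30 ± 0.64 in +/- cells, and the genotypes differed by -1.08 ± 0.64. The genotype difference of Slc16a9 under IL-4 and RSG was thus large at 1 of 3 probe sets, smaller in the same direction at 1454104_a_at, and not shared by 1429727_at.

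The 3 probe sets of Slc16a9 did share the IL-4 response, and followed each other over the arrays with r of 0.74 to 0.86. IL-4 lowered Slc16a9 at 1429726_at (-2.37 ± 0.54 in fl/- cells, limma adjusted p = 0.0035, and -2.24 ± 0.54 in +/- cells, limma adjusted p = 0.0057). At 1429727_at the fall was 18.4-fold in fl/- cells (-4.20 ± 0.59, limma adjusted p = 3.9e-05) and 14.9-fold in +/- cells (-3.90 ± 0.59, limma adjusted p = 9.8e-05). At 1454104_a_at the difference was -1.84 ± 0.64 in fl/- cells (limma, adjusted p = 0.052) and -1.97 ± 0.64 in +/- cells (limma, adjusted p = 0.039, called). The call at 1454104_a_at in +/- cells was lost without mouse 1 (-1.78), 2 (-1.94), 3 (-2.20) or 5 (-1.97), and that at 1429726_at in +/- cells without mouse 3 (-1.75). At 1429727_at the fall in fl/- cells was -3.24 without mouse 6. Without IL-4 RSG was on the higher side in 3 of 3 +/- mice at all 3 probe sets, by 0.58 ± 0.64 to 0.90 ± 0.59, none past the threshold (limma, adjusted p = 1). Of the fl/- mice 3 of 3 were higher at 1429727_at (0.22 to 1.77), 2 of 3 at 1429726_at and 1 of 3 at 1454104_a_at.

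Allc encodes allantoicase, an enzyme of urate breakdown (chromosome 12, 28553755 to 28582528). At probe set 1432104_a_at it had ratios of 0.224, 0.287 and 0.327 in fl/- cells with IL-4 and RSG, against 2.13, 1.42 and 1.25 in +/- cells. In IL-4 cultures given vehicle it had 1.58, 1.06 and 0.772 in fl/- cells, against 0.379, 0.778 and 2.18 in +/- cells. In the presence of IL-4, RSG differed from vehicle by -1.98 ± 0.53 log2 units in fl/- cells, lower in 3 of 3 mice, and by 0.85 ± 0.53 in +/- cells, higher in 2 of 3 mice. In +/- cells the difference was 0.04 without mouse 1 and 1.68 without mouse 3. The IL-4 response was -0.13 ± 0.53 in fl/- and -0.23 ± 0.53 in +/- cells and did not pass the threshold (limma, adjusted p = 0.91 and 0.84). With RSG and no IL-4 fl/- cells differed from +/- cells by 1.13 ± 0.53 (limma, adjusted p = 0.53), with overlap of the arrays. The second probe set, 1456589_x_at, was not related to the first over the arrays (r = 0.05). It gave -0.97 ± 1.00 in fl/- and -1.17 ± 1.00 in +/- cells for RSG with IL-4, lower in 3 of 3 mice of both genotypes, and -0.44 ± 1.00 between genotypes.

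**Figure D4:**
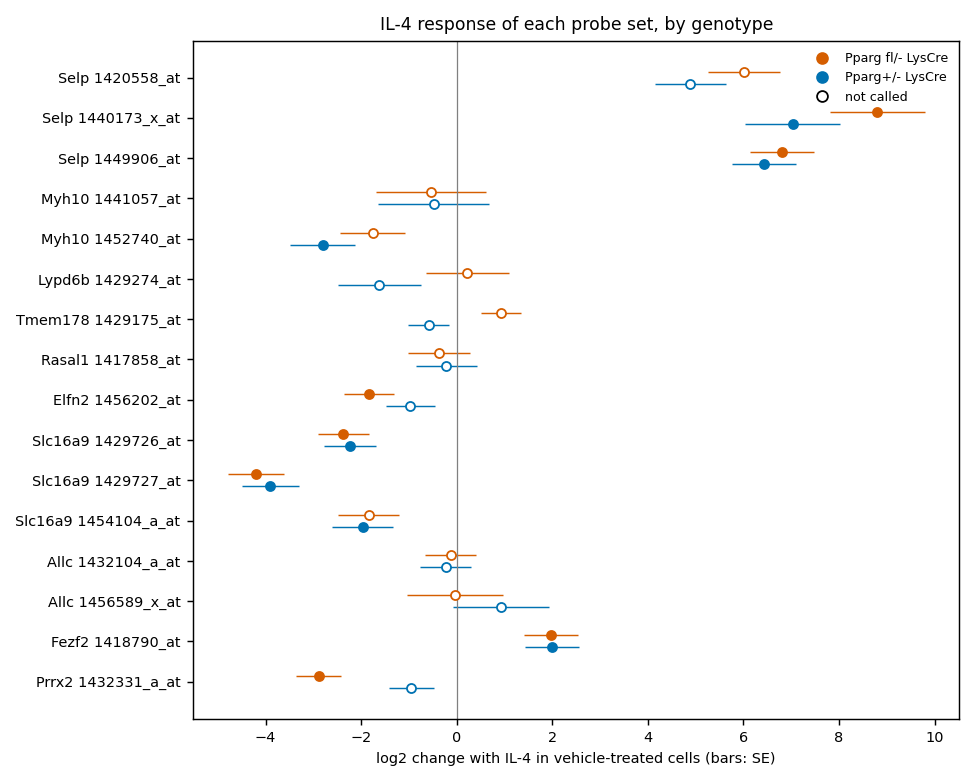
Log2 change with IL-4 in vehicle-treated cells for the 16 probe sets, fl/- mice in orange above +/- mice in blue, with SE bars. Filled points were called. Selp lies at 4.89 to 8.80, Fezf2 at 1.97 and 1.99, and the 3 Slc16a9 probe sets at -4.20 to -1.84. Selp 1420558_at is drawn with the SE of the fit without a mean-variance trend and as not called, which is its state in the fit with the trend.

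Across the 10 genes, IL-4 was the treatment that the arrays resolved. Of the 16 probe sets 7 were called in fl/- cells (3 up and 4 down, in 5 genes), where 14.8% of all probe sets were called, 8.21% up and 6.6% down. In +/- cells 7 were called (3 up and 4 down, in 4 genes), against 13.4% of all probe sets, 7.91% up and 5.47% down. Selp, Fezf2 and Slc16a9 were called in both genotypes, Elfn2 and Prrx2 in fl/- cells and Myh10 in +/- cells. The IL-4 response differed between genotypes at 0 of the 16 probe sets and at 0 of all 43349 by limma. At an unadjusted p under 0.05 were 2 of the 16 (Tmem178, 1.51 ± 0.60, and Prrx2), beside 2095 of all. Lypd6b, Tmem178, Rasal1 and Allc had no called IL-4 response. For Lypd6b it was 0.22 ± 0.87 in fl/- and -1.62 ± 0.87 in +/- cells (limma, adjusted p = 0.91 and 0.24), for Tmem178 0.92 ± 0.42 in fl/- and -0.59 ± 0.42 in +/- cells (limma, adjusted p = 0.15 and 0.42), and for Rasal1 -0.37 ± 0.64 in fl/- and -0.22 ± 0.64 in +/- cells (limma, adjusted p = 0.76 and 0.88).

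In the other tested comparisons 0 of the 16 probe sets were called by limma. For RSG without IL-4 this held in fl/- cells (0% of all probe sets called) and in +/- cells (0.0115%). At an unadjusted p under 0.05 were 1 of the 16 in fl/- cells, beside 1843 of all 43349. In +/- cells there were 4, beside 2285 of all. For fl/- against +/- it held with IL-4 and vehicle (0.00231% of all called), with RSG and no IL-4 (0.00461%) and with vehicle and no IL-4 (0%). In this order 2, 2 and 1 of the 16 were at an unadjusted p under 0.05, beside 3963, 4027 and 3947 of all 43349. For the difference of the RSG responses without IL-4, 0.00231% of all probe sets were called. There 1 of the 16, Prrx2, was at an unadjusted p under 0.05, beside 1945 of all. In these 3 genotype comparisons and in the RSG comparisons, the methods' t-test also called 0 of the 16 after adjustment. A difference that misses the threshold with 3 mice a group does not show that the groups are alike: the SE of a difference between 2 groups was 0.42 to 1.16 log2 units, leaving out Selp 1420558_at.

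For RSG with IL-4, which shares the arrays that chose the genes, 0 of the 16 were called in fl/- cells (0.00923% of all probe sets called) or in +/- cells (0.173%), and nothing is read from these counts. The difference between the genotypes in the RSG response with IL-4 was called at 0 of the 43349 probe sets. As a description, that difference (fl/- minus +/-) was 3.35 ± 1.24 log2 units for Lypd6b, 3.09 ± 0.74 for Elfn2, 2.23 ± 0.90 for Rasal1, 1.88 ± 0.95 for Selp 1449906_at, 1.84 ± 0.96 for Myh10 1452740_at and 1.45 ± 0.60 for Tmem178. It was -3.06 ± 0.79 for Fezf2, -2.89 ± 0.76 for Slc16a9 1429726_at, -2.83 ± 0.75 for Allc 1432104_a_at and -1.47 ± 0.66 for Prrx2. By direction, Tmem178, Lypd6b and Rasal1 were lower with RSG in 3 of 3 +/- mice and not in all 3 fl/- mice. Selp was lower in 3 of 3 mice of both genotypes, by more in +/- cells. Myh10 was lower in 2 of 3 +/- mice. Elfn2 was higher with RSG, and Slc16a9 1429726_at, Allc 1432104_a_at, Fezf2 and Prrx2 were lower, in 3 of 3 fl/- mice. In +/- mice these genes went both ways with RSG, other than Fezf2, which was higher in 3 of 3 (0.23 to 0.56). None of the 10 genes was higher with RSG in IL-4-treated +/- cells by more than 0.85 log2 units at its probe set called between genotypes with IL-4 and RSG. At the second Myh10 probe set, 1441057_at, the changes were -0.50, 0.56 and 3.14 in mice 1, 2 and 3.

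**Figure D5:**
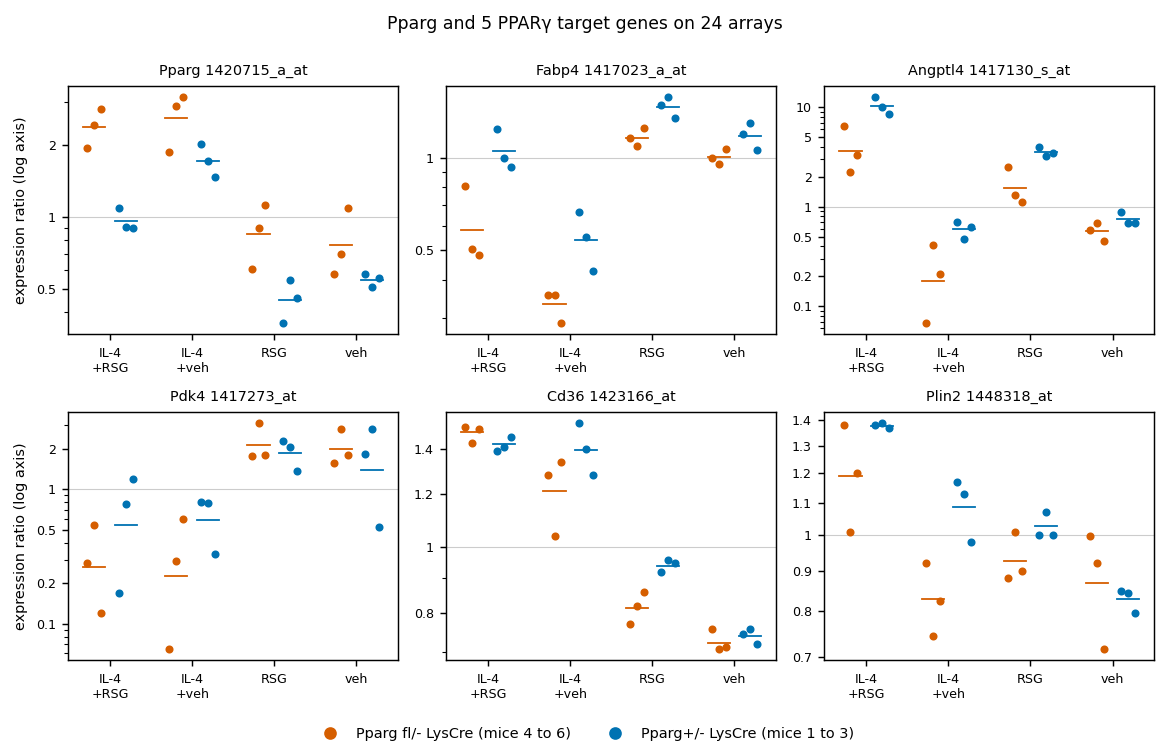
Expression ratio (log axis) of Pparg and of 5 target genes of PPARγ on the 24 arrays, with fl/- mice in orange left of +/- mice in blue and the mean of the log2 ratios as a line. Angptl4 lies between 2.23 and 6.47 in fl/- and between 8.65 and 12.7 in +/- cells with IL-4 and RSG, and between 0.0684 and 0.701 with IL-4 and vehicle.

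Target genes of PPARγ were read beside the 10 genes, from a list of 30 of which 27 were measured. With IL-4, 1 of the 27 was called higher with RSG in fl/- cells (Angptl4), where 0.00923% of all probe sets were called. In +/- cells 3 were called higher (Angptl4, Ech1 and Acaa2), against 0.173% called, and 0 were called lower in either genotype. With 1 mouse left out the count was 0 to 1 in fl/- cells (0 without mouse 4 or 6) and 0 to 4 in +/- cells (0 without mouse 1, 2 or 3, and 1 without mouse 6). The methods' t-test and a fit on only the arrays compared gave 0 in both genotypes. Angptl4, which encodes an inhibitor of lipoprotein lipase, averaged 4.00 ± 2.20 in fl/- and 10.5 ± 2.08 in +/- cells with IL-4 and RSG, and 0.23 ± 0.173 in fl/- and 0.603 ± 0.117 in +/- cells with IL-4 and vehicle (SD, n = 3). The change with RSG was 4.32 ± 0.49 log2 units in fl/- and 4.12 ± 0.49 in +/- cells, so that Angptl4 was higher with RSG in cells of both genotypes. Fabp4, which encodes a fatty acid binding protein, averaged 0.598 ± 0.183 in fl/- and 1.06 ± 0.158 in +/- cells with IL-4 and RSG, and 0.334 ± 0.0384 in fl/- and 0.547 ± 0.12 in +/- cells with IL-4 and vehicle (SD, n = 3). Pdk4, Cd36 and Plin2 averaged 0.315, 1.48 and 1.20 in fl/- cells and 0.713, 1.42 and 1.38 in +/- cells with IL-4 and RSG. With IL-4 alone 5 of the 27 rose and 5 fell in fl/- cells, against 8.21% of all probe sets called up and 6.6% down. In +/- cells 7 rose and 2 fell, against 7.91% up and 5.47% down. Without IL-4 limma called 0 of the 27 for RSG, with 1 at an unadjusted p under 0.05 in fl/- and 13 in +/- cells. Of all 43349 probe sets 1843 in fl/- and 2285 in +/- cells were at such a p. The methods' t-test called 0 of all probe sets after adjustment. The median change of the list with RSG and IL-4 was 0.24 in fl/- and 0.26 in +/- cells, against 0 and -0.01 over all probe sets.

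Relatives of the 10 genes were listed as well, and 28 of 29 were measured. With IL-4, 4 rose (Plaur, Rasa1, Elfn1 and Slc16a1) and 4 fell (Ly6e, Myl9, Slc16a6 and Slc16a10) in fl/- cells. In +/- cells 4 rose (Plaur, Rasa1, Rasal2 and Slc16a1) and 7 fell (Ly6e, Myl9, Stim1, Fezf1, Slc16a6, Slc16a7 and Slc16a10). Myl9, a myosin light chain, fell by 6.02 in fl/- cells and fell by 3.87 in +/- cells. Rasa1, another Ras GTPase-activating protein, rose by 1.26 in fl/- and 1.08 in +/- cells. The transporters of the Slc16 family moved both ways with IL-4: Slc16a1 rose by 0.89 in fl/- and 1.28 in +/- cells, and Slc16a10 fell by 1.37 in fl/- and by 1.10 in +/- cells, beside the fall of Slc16a9. In the other 7 tested comparisons limma called 0 of the 28, with 2 to 5 at an unadjusted p under 0.05. Of all 43349 probe sets 1843 to 4027 were at such a p. With IL-4 and RSG 1 of the 28, Plaur of the uPAR family to which Lypd6b is related, was higher in fl/- than in +/- cells, by 0.71 ± 0.13. The median change of the list with IL-4 was -0.15 in fl/- and -0.08 in +/- cells, against 0.12 and 0.10 over all probe sets.

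Each gene was finally set beside the 1 other gene whose log2 ratio followed it best over the 24 arrays, as a description, since the arrays share mice and fall into 8 groups. Selp was followed by Sphk1 (Pearson's r = 0.97), Slc16a9 by Nt5c3b (0.92), Myh10 by Plau (0.91), Prrx2 by Mgp (0.89) and Tmem178 by Bmp2 (0.87). For Rasal1, Allc, Lypd6b, Fezf2 and Elfn2 the best likeness was lower, with Adam19 (0.79), Trh (0.75), Folr1 (0.72), Mpped2 (0.70) and Smgc (0.69). The spread within groups (SD of the log2 ratio) of the probe set used for each gene lay between 0.54 for Tmem178 and 1.10 for Lypd6b, percentiles 53.4 and 78.5 of all probe sets.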

How the data were processed

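RNA of the 24 cultures was hybridised to Affymetrix arrays of the mouse genome. Per the methods, the authors computed GC-RMA values in GeneSpring and divided them by the median of the array and of the probe set, so the deposited values are linear expression ratios. A last division by the vehicle control that the methods name was not seen in the values. GCOS is named in the submitters' processing notes, and its version is not given in the sources used here. Ratios hold no background signal, so dim probe sets could not be told from bright ones.

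Ratios were set to at least 0.01, the lowest value in the table, and taken as log2. Of 45101 probe sets, 64 controls were removed, and 1688 that did not reach the array median on at least 3 arrays. The other 43349 were fitted with limma 3.58.1 in R 4.3.3, with 8 group means and a prior spread that follows the mean (trend), followed by Benjamini-Hochberg adjustment over all of them. The fit was also run on simulated data with known changes. These were drawn around a common mean for all probe sets, so they could not test the trend. Platform annotation gave 1 symbol to 34945 probe sets, several to 932 and none to 9160, and 34741 were matched to current symbols by ID. All 16 probe sets of the 10 genes are named, and a gene with several is represented by the one whose replicates varied least. The same rule chose 1 probe set for each gene of the lists. The genes and lists were chosen with earlier results of these data known.

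The labels give 4 cultures to each mouse. Residuals of same-mouse arrays correlated at -0.06 to 0.04, and a fit with the mouse as a random block gave a consensus correlation of 0.038. Alternatives were a floor of 0.05, array centring, quantile normalization, no filter, a fit on only the arrays compared, the methods' t-test, the mouse block, leaving out each mouse, and, added after seeing the data, a fit without the trend. The mouse block was a fixed effect of the mouse for the IL-4 and RSG responses and their differences. For comparisons between genotypes it was the random block.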

Additional observations from a re-analysis of the deposited data

Results flagged for a closer look

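Prrx2 was singled out because its RSG response without IL-4 ran one way in all fl/- mice and the other way in all +/- mice, with a difference of -1.99 log2 units (fl/- minus +/-). The difference itself did not pass the threshold (limma, adjusted p = 0.87).

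Rasal1 and Fezf2 were singled out for the same kind of pattern with IL-4. The RSG response of Rasal1 was higher in fl/- than in +/- mice by 2.22 log2 units, with 3 of 3 fl/- mice higher and 3 of 3 +/- mice lower with RSG. For Fezf2 the difference was -3.06, with 3 of 3 fl/- mice lower and 3 of 3 +/- mice higher. Both rest on the arrays that chose the genes, so these differences were not tested.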

How the results depend on the processing

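The methods' t-test called 3 of the 16 probe sets for IL-4 in both genotypes, against 7 and 7 by limma, and 0 for fl/- against +/- with IL-4 and RSG, against 10. A fit on only the arrays compared also gave 0 there. Quantile normalization gave 1 for RSG with IL-4 in +/- cells, against 0, and turned Selp 1440173_x_at between genotypes with IL-4 and vehicle to 0, against 1.21. Leaving out each mouse gave 6 to 8 calls for IL-4 in fl/- and 5 to 7 in +/- cells, 0 to 7 for fl/- against +/- with IL-4 and RSG (0 without mouse 1 or 5, 2 without mouse 3, 3 without mouse 2 or 6), and 0 to 1 for RSG with IL-4 in fl/- (1 without mouse 2 or 3) and in +/- cells (1 without mouse 5). With the mouse block 8 were called for IL-4 in fl/- cells, where Slc16a9 1454104_a_at gained its call, 7 in +/- cells, and 10 for fl/- against +/- with IL-4 and RSG, and no other call changed. Without the trend 8 were called for IL-4 in both genotypes, with Selp 1420558_at added. Over all probe sets, the methods' t-test called 1885 for IL-4 in fl/- cells (6422 by limma) and 3415 in +/- cells (5798 by limma). Of 179 alternative counts of members called, 166 lay within 1.5 times the value reported. Of 1450 alternative log2 changes, 1397 were counted as kept. Those with a test kept their direction and side of the threshold, and those without a test moved by less than the spread between replicates. A change of sign within that spread was not counted as a reversal. An example is Prrx2 for RSG with IL-4 in +/- cells, at 0.17 and, with 1 mouse left out, as low as -0.17. Of the rest, 28 lost and 7 gained the call, and 17 without a test moved by more than that spread. The last 1, with a test, was counted as reversed because it went to 0 (Selp 1440173_x_at, above). No opposite direction can be read from it. The causes were not tested. With 3 arrays a group and no signal over background, a probe set near background cannot be recognised.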
